A study of Mus musculus with 16 samples.

Results

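5ar1 and 5ar3 are mouse formative stem cell (FS) lines, both maintained in the culture condition labelled A3XR. They make up 6 of the 16 RNA-seq libraries of the series, and were chosen by line and medium: line 5ar1 at passages 10, 12 and 14 (n = 3) against line 5ar3 at passages 4, 5 and 12 (n = 3). A3XR combines a low dose of activin with XAV939, an inhibitor of tankyrase and so of Wnt signalling, and a retinoic acid receptor inverse agonist. The other 10 libraries came from the epiblast stem cell (EpiSC) line AF32 in AF medium, which holds activin and FGF2 (passages 13, 14 and 15), the EpiSC line AFX6 in AFX medium, which adds XAV939 (passages 5, 8 and 12), and the embryonic stem (ES) line E14IV-C in 2iL, which holds inhibitors of MEK and GSK3 with LIF (passages 12, 13, 15 and 20). No genotype or agent apart from the media was labelled, and each medium other than A3XR was represented by 1 line. Passages of a line share its founding cells, so p-values measured the spread between these cultures of 1 line each, and a difference between 5ar1 and 5ar3 cannot be told apart from one between any other pair of derivations in this medium. Passage also differed between the lines, apart from passage 12, the one passage at which both were sequenced.

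Formative pluripotency is the state of the epiblast between the naive epiblast of the blastocyst and the primed epiblast of gastrulation. Cells in this state have left the naive network of transcription factors, keep Pou5f1, Sox2 and Otx2, and can respond to signals for the germline and for somatic lineages. The epiblast is an epithelium, held together by E-cadherin and tight junctions, and cells lose parts of that epithelial programme when they enter the primitive streak or form neural tissue. Activin and Nodal signalling hold back the anterior neural programme, which is the fate the epiblast takes up when they are low.

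Sequencing gave 22069338 to 28125328 assigned reads in each of the 6 libraries, and the share taken by the mitochondrial ribosomal RNA mt-Rnr2 ran from 9.96% to 24.2%, the latter in 5ar3 passage 5. On the log2 scale of read counts scaled to library size (CPM), libraries of the same line correlated at 0.966 to 0.987 and libraries of different lines at 0.944 to 0.972, across 18555 genes, which are not independent replicates. The 5ar1 library at passage 10 stood apart from its line: it correlated at 0.977 and 0.966 with passages 12 and 14, which correlated at 0.987 with each other, and at 0.969 with 5ar3 passage 4. Counts over all genes and for the epithelial, mesenchymal and neural plate lists are therefore also given without it. Counts of the other lists and of families are given with it only. The 5ar3 library at passage 12 correlated at 0.971 and 0.976 with passages 4 and 5 of its line. With 5ar1 passage 12 it correlated at 0.972, so it was no nearer to passage 4 of its own line. The pluripotency factors that define the labelled cell type were present in every library of both lines: Nanog lay between 88.8 and 158 CPM, Otx2 between 133 and 215 CPM and Sox2 between 39.3 and 96.2 CPM.

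Of 18555 genes tested with edgeR's quasi-likelihood test, 720 differed between the lines at a Benjamini-Hochberg adjusted p under 0.05, 345 higher and 375 lower in 5ar1. This is 3.88% of the genes tested (1.86% higher, 2.02% lower), and 587 of the 720 differed by at least 1 on the log2 scale. The 3 libraries of one line did not overlap the 3 of the other for 711 of the 720 genes, against 18.7% of all genes tested. This is a description, since the 720 genes were chosen by the difference between these same libraries. Without the 5ar1 library at passage 10, 1549 genes passed, 634 of them among the 720. Leaving out the 5ar1 library at passage 14 left 286, that at passage 12 left 362, the 5ar3 library at passage 5 left 377 and that at passage 4 left 395. Of 134 named genes that passed with all libraries, 120 still passed without 5ar1 passage 10, 115 without 5ar3 passage 12, and 86 to 100 when any 1 of the other 4 libraries was left out. A fit with passage as a linear covariate gave 431 genes, of which 368 were among the 720. The median log2 fold change over all genes tested was -0.01. Genes are described below by function, with log2 fold changes given as 5ar1 minus 5ar3 and levels as CPM in the order 5ar1 passages 10, 12 and 14, then 5ar3 passages 4, 5 and 12. The shares over all genes tested, 1.86% higher and 2.02% lower, are the scale for the counts in lists and families.

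Genes of epithelial cell junctions and of epithelial identity formed the clearest block that was higher in 5ar1. Of 60 tested genes in 3 epithelial lists, 35 were higher in 5ar1 and none was lower, with a median log2 fold change of 1.38 over the 60. The block comprised 18 of 28 epithelial regulators, proteases and trafficking genes (median 2.43), 8 of 19 tight junction and polarity genes (median 0.99) and 9 of 13 desmosome and keratin genes (median 1.18). The epithelial count was 30 without the 5ar1 library at passage 10, and it ranged from 27 to 33 over the 6 fits that each left out 1 library. Summed over the 60 genes, the level lay between 2104 and 2775 CPM in 5ar1 and between 912 and 1379 CPM in 5ar3. In bulk RNA, fewer cells that express a gene and less RNA of that gene per cell cannot be told apart. 

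**Figure D1:**
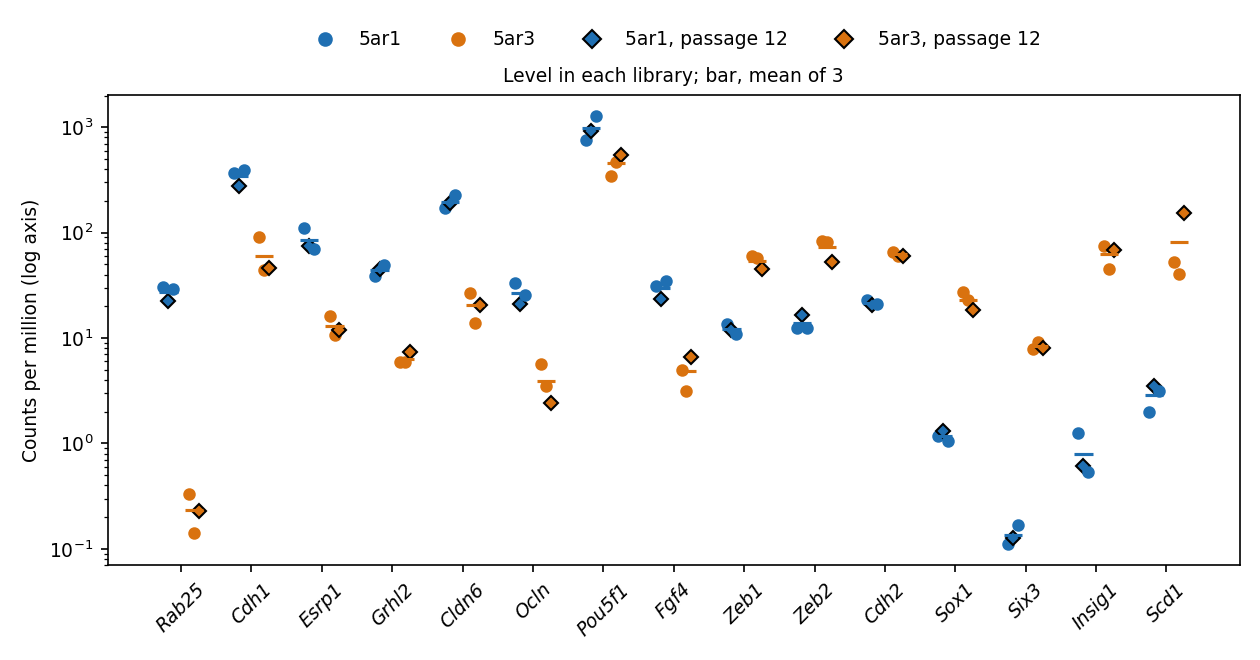
Level of 15 genes in each library, in CPM on a log axis; points are libraries (5ar1 blue, 5ar3 orange, diamonds with a black edge for passage 12) and bars are means of 3. Epithelial genes from Rab25 to Ocln sit higher in every 5ar1 library, and Zeb1, Zeb2, Cdh2, Sox1, Six3, Insig1 and Scd1 sit higher in every 5ar3 library.

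Rab25, a small GTPase that recycles membrane proteins to the apical surface of epithelial cells, had the largest fold change of the genes that the naming rule took, which asks for 10 CPM or more on average in the higher line; some list genes with fewer reads, such as Macc1 and Fezf1, had larger fitted changes. Its level was 30.4, 22.7 and 29.3 CPM in 5ar1 and 0.332, 0.141 and 0.228 CPM in 5ar3. All 5ar1 libraries were thus far above all 5ar3 libraries, where the gene was close to absent (log2 fold change 6.81, SE 0.43, edgeR adjusted p 3.22e-07). Cdh1, which encodes E-cadherin, was at 369, 278 and 392 CPM in 5ar1 against 91.2, 44.2 and 46.7 CPM in 5ar3 (log2 fold change 2.51, SE 0.28, edgeR adjusted p 8.27e-05). Unlike Rab25, Cdh1 remained well expressed in 5ar3. The adhesion molecule Epcam showed a smaller difference, with 262, 227 and 256 CPM against 118, 79.4 and 77.7 CPM (log2 fold change 1.44).

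Regulators of the epithelial state were among the genes that differed. Grhl2, a grainyhead transcription factor that activates junction genes, was at 38.5, 44.9 and 49.8 CPM in 5ar1 and at 5.89, 5.89 and 7.38 CPM in 5ar3 (log2 fold change 2.80, SE 0.27, edgeR adjusted p 1.43e-05). Ovol2, a zinc finger repressor of mesenchymal genes, was at 2.52, 2.01 and 1.39 CPM against 0.368, 0.0471 and 0.114 CPM (log2 fold change 3.39). The paralogs Grhl1 and Grhl3 did not pass the test, with log2 fold changes of 0.25 and -0.63. Esrp1, an RNA-binding protein that directs epithelial splicing, was at 110.2, 75.1 and 69.7 CPM against 16.1, 10.6 and 11.9 CPM (log2 fold change 2.72, SE 0.24, edgeR adjusted p 6.87e-06), and its paralog Esrp2 had a log2 fold change of 4.004. The lines therefore differed in a transcription factor and a splicing factor of the epithelial programme as well as in its structural genes.

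Among tight junction genes the difference was uneven. The claudin Cldn6, which is abundant in early embryonic epithelium, was at 172, 189 and 226 CPM in 5ar1 and at 27.0, 13.9 and 20.7 CPM in 5ar3 (log2 fold change 3.25, SE 0.32, edgeR adjusted p 1.56e-05). Cldn4 and Cldn7 had log2 fold changes of 4.20 and 2.75, and Ocln, which encodes the transmembrane protein occludin, was at 33.1, 21.3 and 25.4 CPM against 5.67, 3.53 and 2.44 CPM (log2 fold change 2.77). The tricellular junction gene Marveld2 (1.42), its relative Marveld3 (1.63), the adhesion molecule F11r (1.20) and the polarity gene Crb3 (2.05) were also higher in 5ar1. The cytoplasmic scaffold genes Tjp1 and Tjp3 had log2 fold changes of -0.28 and 0.63 and did not pass. The 8 genes of this list past the threshold all encode membrane proteins, although the claudin Cldn3 (0.99) did not pass.

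Desmosomes anchor keratin filaments at cell contacts. Their plaque gene Pkp3 was between 0.924 and 1.66 CPM in 5ar1 and between 0 and 0.0471 CPM in 5ar3 (log2 fold change 5.33), whereas Jup, shared by desmosomes and adherens junctions, was at 73.5, 35.4 and 39.8 CPM against 24.2, 11.3 and 21.0 CPM (log2 fold change 1.39). Dsg2 (1.56), Dsc2 (1.14), Dsp (1.11), Ppl (2.54), Evpl (1.98) and the keratins Krt8 (1.65) and Krt18 (1.08) were higher in 5ar1. Dsp, at 49.1, 21.4 and 31.9 CPM against 18.1, 9.23 and 20.1 CPM, stayed past the threshold under 3 of 15 alternatives and Krt18 under 2 of 15. Jup stayed past it under 6 of 15, Evpl under 7 of 14 and Dsc2 under 8 of 15. Dsc2 passed in none of the 6 fits that left out 1 library. Pkp3 and Ppl held under all 15 alternatives, Dsg2 under 14 and Krt8 under 13.

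Trafficking, protease and signalling genes of epithelia followed. Mal2, a protein of transcytosis, was at 12.8, 9.12 and 9.14 CPM in 5ar1 against 0.368, 0.377 and 0.381 CPM in 5ar3 (log2 fold change 4.77, SE 0.43, edgeR adjusted p 7.10e-06). Ap1m2, the epithelial subunit of the AP-1 sorting adaptor, was between 4.45 and 12.5 CPM against 0 to 0.147 CPM. Macc1 was between 2.39 and 8.16 CPM in 5ar1 and had no read in any 5ar3 library, which makes it at least 111-fold higher in 5ar1, with 3 reads over the line as the floor. The membrane protease St14 (2.42), its inhibitors Spint1 (1.10) and Spint2 (1.01), the protease Prss8 (1.64), the 14-3-3 protein Sfn (4.35), the anchoring protein Lad1 (3.61) and the flippase subunit Tmem30b (2.59) were all higher in 5ar1. The 10 genes of this list that did not pass were between -0.98 (Cdcp1) and 2.44 (Ovol1).

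The other lines of the series give a scale for these levels. Rab25 was between 8.92 and 13.2 CPM in AF32, between 14.1 and 28.3 CPM in AFX6 and between 3.34 and 7.19 CPM in E14IV-C, above every 5ar3 library in each line. Cdh1 was between 286 and 375 CPM in AF32, between 402 and 611 CPM in AFX6 and between 454 and 805 CPM in E14IV-C, again above every 5ar3 library. Esrp1 was between 53.7 and 89.4 CPM in the EpiSC lines, above 5ar3, but between 0.406 and 1.063 CPM in E14IV-C, below it. Over all 345 genes higher in 5ar1, the mean log2 CPM of AFX6 lay nearer to 5ar1 than to 5ar3 for 73.0%, that of AF32 for 54.2% and that of E14IV-C for 53.04%. These are descriptions, since the 345 genes were chosen by the difference between the lines.

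The proximal promoters of these genes shared a short sequence. The hexamer CACCTG, an E-box that Zeb and Snail repressors are known to bind, was present on either strand in 15 of 21 promoters (71.4%) of epithelial list genes higher in 5ar1 that had an entry, taken as 250 bases before to 50 after the RefSeq gene start in GRCm38.p6. Each gene was counted at its first listed start only. The hexamer was present in 20% of all 27025 promoters of that length and in 18.6% of 11601 promoters of tested genes. Of the epithelial list genes that did not pass, 10 of 16 promoters (62.5%) held it, so its share was high in these lists whether or not the gene differed between the lines. Over all genes higher in 5ar1 it was present in 95 of 238 promoters (39.9%), and over all genes lower in 5ar1 in 37 of 252 (14.7%). Median GC content was 60.7% in the tested genes' promoters and 60.7% in the called epithelial ones. The grainyhead motif AACCNGTT was present in 2 of the 21 promoters and in 2.01% of all promoters. A match of letters is a description and does not show binding. The 120 bases before the start of 4 epithelial genes named by the rule are shown to give the hexamer (capitals) its context, 5′ to 3′ on the gene's strand. In Rab25 a pair of matches on opposite strands lay 64 and 53 bases before the start, in Sfn the match lay 41 bases before it, in Cldn6 93 bases and in Cldn7 97 and 57 bases. They are Rab25 at chr3:88548280-88548399 (minus strand), Sfn at chr4:133602169-133602288 (minus strand), Cldn6 at chr17:23679245-23679364 (plus strand) and Cldn7 at chr11:69965301-69965420 (plus strand, at 1 of its 2 listed starts). Each gene is shown at its first listed start with a match, which need not be the start used in the counts.
Rab25: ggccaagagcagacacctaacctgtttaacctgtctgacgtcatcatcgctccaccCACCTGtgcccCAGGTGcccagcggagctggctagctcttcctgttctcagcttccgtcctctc
Sfn: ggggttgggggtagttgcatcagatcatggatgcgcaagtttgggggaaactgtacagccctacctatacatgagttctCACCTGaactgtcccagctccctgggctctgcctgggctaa
Cldn6: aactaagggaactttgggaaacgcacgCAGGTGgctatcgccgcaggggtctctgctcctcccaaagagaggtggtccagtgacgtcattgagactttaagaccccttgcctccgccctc
Cldn7: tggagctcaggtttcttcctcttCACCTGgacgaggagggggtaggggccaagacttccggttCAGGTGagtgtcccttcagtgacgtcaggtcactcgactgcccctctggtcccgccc

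The hairpin of a microRNA that belongs to this programme also differed. The miR-200 family is known for pairing with the messages of Zeb1 and Zeb2, and Zeb proteins in turn repress the miR-200 genes. Reads over the Mir200a hairpin (chr4:156054896-156054985, minus strand, GRCm38) numbered 26, 17 and 36 in 5ar1 and 1, 1 and 1 in 5ar3. The ratio of summed reads, scaled to library size, was 22.4 (95% exact interval 7.38 to 111, counting error only), and edgeR fitted a log2 fold change of 4.34 with an SE of 0.58 (adjusted p 3.75e-04). This gene was among those chosen after the values were seen. AF32 had 22 to 26 reads over the hairpin, AFX6 27 to 58 and E14IV-C 4 to 9. Reads over a hairpin in such a library do not measure the mature microRNA. The hairpin of Mir200b held 6 reads in 5ar1 and 0 in 5ar3, under the filter on low counts. Mature 3p sequences of the family are shown with the seed, bases 2 to 8, in capitals, because the seeds divide the family: miR-200a shares AACACUG with miR-141, while miR-200b, miR-200c and miR-429 carry AAUACUG. They were taken from RefSeq.
miR-200a-3p: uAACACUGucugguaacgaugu
miR-141-3p: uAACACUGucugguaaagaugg
miR-200b-3p: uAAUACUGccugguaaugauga
miR-200c-3p: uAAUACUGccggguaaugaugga
miR-429-3p: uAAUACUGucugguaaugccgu

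Of 16 tested genes of epithelial to mesenchymal transition, 4 were lower in 5ar1 and none higher, with a median log2 fold change of -1.17. All 16 values were below 0, some of them barely, such as Sparc at -0.05. Zeb1, a repressor of Cdh1 and of other epithelial genes, was at 13.6, 11.98 and 10.9 CPM in 5ar1 against 60.2, 57.4 and 44.8 CPM in 5ar3 (log2 fold change -2.15, SE 0.37, edgeR adjusted p 0.00316). Its paralog Zeb2 was at 12.4, 16.6 and 12.5 CPM against 84.2, 82.2 and 52.5 CPM (log2 fold change -2.40, SE 0.35, edgeR adjusted p 8.85e-04). In both genes the 5ar3 library at passage 12 was the lowest of its line and still above every 5ar1 library. The cadherins Cdh2 (N-cadherin) and Cdh11 had log2 fold changes of -1.52 and -3.41. Vim, which encodes the intermediate filament vimentin, was at 185 to 258 CPM in 5ar1 and 299.9 to 444 CPM in 5ar3 and did not pass (log2 fold change -0.58, edgeR adjusted p 0.155). Snai1 and Snai2, at -1.10 and -0.82, and Fn1, at -0.08, did not pass either. Snai3, a Snail family member outside the lists and chosen after its values were seen, went the other way, with 9.08, 6.502 and 7.79 CPM in 5ar1 against 2.54, 0.801 and 0.952 CPM in 5ar3 (log2 fold change 2.43). Without the 5ar1 library at passage 10 the list held 5 genes lower in 5ar1.

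Regulators of the anterior neural plate formed the block that was lower in 5ar1. Of 24 tested genes, 15 were lower and none was higher, with a median log2 fold change of -3.87 (-3.78 with genes at 0 in a line set to their bound). The count was 14 without the 5ar1 library at passage 10 and 10 to 14 over the 6 fits that left out 1 library. It fell to 7 with a filter of at least 1 CPM on average, which also removed low genes from the list. The list's summed level lay between 15.8 and 23.5 CPM in 5ar1 and between 94.5 and 117 CPM in 5ar3.

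Sox1, the earliest SoxB1 factor of committed neural plate, was at 1.19, 1.31 and 1.05 CPM in 5ar1 and at 27.3, 22.9 and 18.5 CPM in 5ar3 (log2 fold change -4.27, SE 0.63, edgeR adjusted p 8.85e-04). Six3, which specifies the most anterior forebrain and eye field, was at 0.111, 0.127 and 0.169 CPM against 7.96, 9.19 and 7.99 CPM (log2 fold change -5.89, SE 0.85, edgeR adjusted p 7.72e-04). Six3os1, transcribed from the opposite strand beside Six3, was at 0.259, 0.287 and 0.508 CPM against 19.7, 17.01 and 18.9 CPM. Since the strand setting of the counting was not given in the sources used here, reads of this pair may not be told apart. All 3 genes showed similar levels at passages 4, 5 and 12 of 5ar3.

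The forebrain zinc finger gene Fezf1 had no read in 5ar1 and was at 6.19, 2.36 and 2.21 CPM in 5ar3, at least 105-fold lower in 5ar1, while its paralog Fezf2 was at 0.0319 to 0.135 CPM against 2.85 to 5.23 CPM. The eye field and forebrain factors Rax (log2 fold change -2.84), Hesx1 (-4.19), Lhx2 (-3.64), Lhx5 (-3.88), Pou3f3 (-4.39), Pou3f4 (-4.01) and Sox21 (-3.70) were lower in 5ar1. Zic1 was at 0 to 0.0319 CPM in 5ar1 and 2.17 to 3.94 CPM in 5ar3. Irx3, a gene of the posterior forebrain and regions behind it, had a log2 fold change of -4.81, and En1, of the midbrain, was at least 8.71-fold lower and below 1 CPM in both lines. Factors shared with the pluripotent epiblast did not follow: Sox3 had a log2 fold change of 0.43, Pou3f2 of 0.28 and Gbx2 of 0.42, none past the threshold. Pax6 was at 0.892 to 1.49 CPM against 3.43 to 5.12 CPM and did not pass (log2 fold change -1.81, edgeR adjusted p 0.0764).

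**Figure D2:**
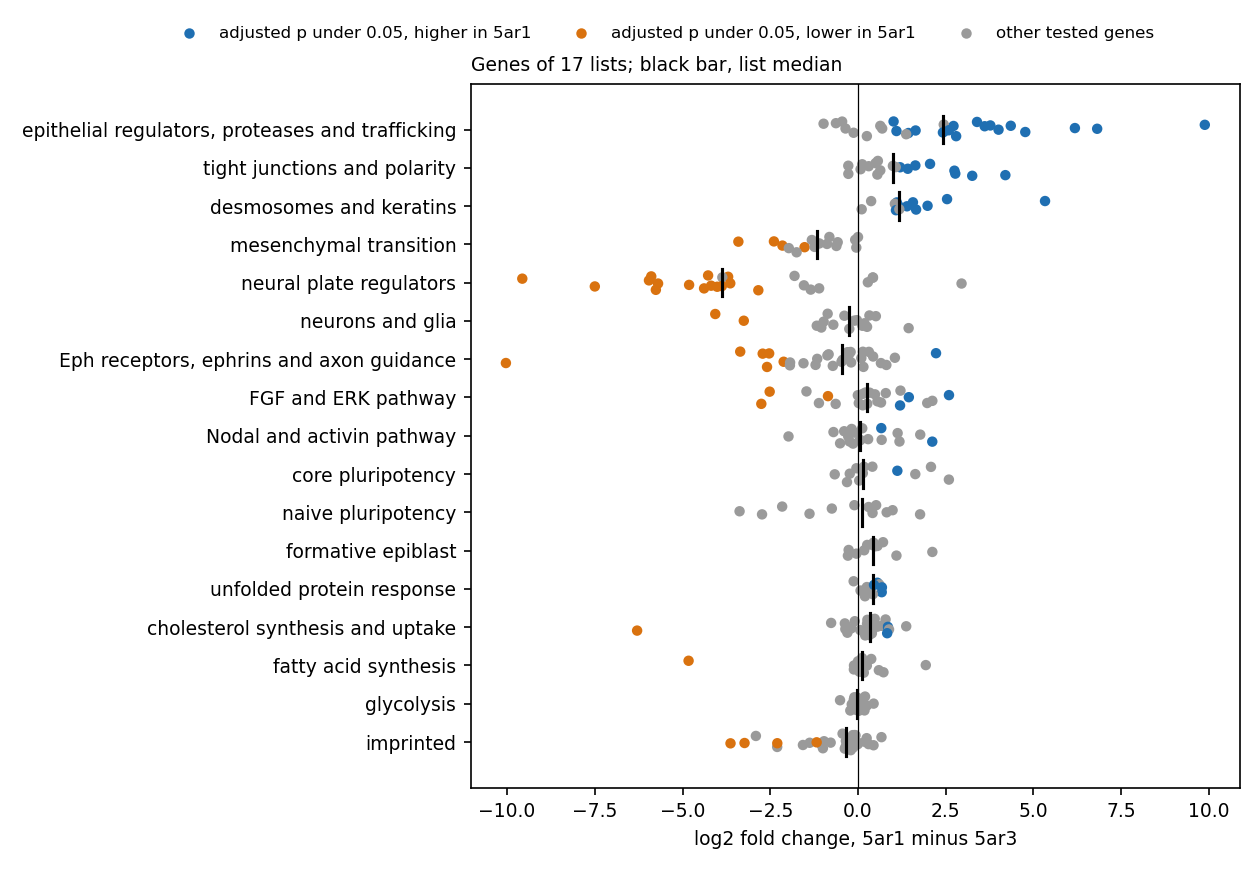
Log2 fold change, 5ar1 minus 5ar3, of each tested gene in 17 gene lists; blue and orange points passed an edgeR adjusted p of 0.05, grey points did not, and black bars are list medians. The 3 epithelial lists lie to the right, with medians of 0.99 to 2.43, and the neural plate list lies to the left at -3.87; points of genes with no read in a line (Macc1, Fezf1, Dcc, En1) are fitted values that depend on the prior count.

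Markers of later neural cells moved less. Of 17 tested genes of neurons and glia, 2 were lower in 5ar1, among them the proneural factor Neurog2, at 0.0319 to 0.0741 CPM against 0.419 to 1.37 CPM. Tubb3, a tubulin of neurons, was at 59.1 to 74.1 CPM in 5ar1 and 75.6 to 97.8 CPM in 5ar3 and did not pass (log2 fold change -0.39), and Nes, the intermediate filament of neural progenitors, had a log2 fold change of 0.18. The list's summed level was 678 to 1059 CPM in 5ar1 and 614 to 772 CPM in 5ar3. Outside the lists, 3 genes chosen after their values were seen were also lower in 5ar1: the adhesion molecule Ncam1 (17.3 to 40.2 CPM against 80.3 to 108 CPM), the growth factor Ptn (5.48 to 8.33 CPM against 15.5 to 23.6 CPM) and the secreted Wnt antagonist Sfrp1 (26.6 to 39.8 CPM against 87.5 to 182 CPM).

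Markers of other cell types the cultures could hold were at low levels. Of 13 tested endoderm genes, 2 were lower in 5ar1: Foxa2, at 0.0637 to 0.185 CPM against 2.21 to 4.004 CPM, and Shh, at 0 to 0.148 CPM against 1.07 to 3.16 CPM, both also expressed in the floor plate and axial mesoderm. The endoderm list had a median log2 fold change of -2.26 (-2.08 at passage 12), with 11 of 13 genes below 0, 9 of them without overlap, and 4 called by DESeq2. For scale, 18.7% of all genes tested did not overlap in either direction, and DESeq2 called 1292 of 18555. The endoderm genes were at low levels. The endoderm list summed to 10.2 to 48.5 CPM in 5ar1 and 16.8 to 35.6 CPM in 5ar3. Primitive streak and mesoderm genes (16 tested, summing to 19.5 to 53.9 CPM and 39.7 to 61.2 CPM) had Pdgfra lower in 5ar1, at 0.169 to 0.259 CPM against 1.03 to 1.55 CPM. Neural crest genes (10 tested, 11.3 to 38.5 CPM and 16.2 to 37.0 CPM) had Sox9 lower, at 0.948 to 2.42 CPM against 8.67 to 9.33 CPM. Of fibroblast and feeder genes (10 tested, 50.5 to 87.5 CPM and 84.7 to 108 CPM), Col6a1 was lower in 5ar1 and Dcn higher, and Col1a1 was at 0.406 to 1.26 CPM against 1.79 to 3.01 CPM. Of 9 trophoblast genes (7.30 to 11.4 CPM and 7.91 to 9.36 CPM) and of 15 germline genes (6.57 to 16.6 CPM and 11.3 to 16.7 CPM), Tfap2c, which both lists hold, was lower in 5ar1, at 0.237 to 0.445 CPM against 0.754 to 1.22 CPM. Of these calls, Pdgfra held under 5 of 15 alternatives, and in none of the 6 fits that left out 1 library. Tfap2c held under 7 of 15, Foxa2 under 8 of 15, Dcn under 8 of 14 and Shh under 9 of 15. Sox9 held under 14 of 15 and Col6a1 under all 15. The part of these other cell types in the neural and mesenchymal results was not tested.

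Of 12 core pluripotency genes, 1 passed edgeR's test, with 6 at an unadjusted p under 0.05 and 2 by DESeq2. Pou5f1, which encodes OCT4, was at 758, 930.3 and 1279 CPM in 5ar1 and 345, 470.2 and 549.7 CPM in 5ar3 (log2 fold change 1.12, SE 0.19, edgeR adjusted p 0.00262). All 5ar1 libraries were above all 5ar3 libraries, and the difference at passage 12 alone, 0.76, was smaller and did not pass. Sox2 went the other way without passing (log2 fold change -0.66, edgeR adjusted p 0.116), and Nanog was at -0.05. Larger fold changes that did not pass by edgeR were those of Utf1, at 61.9, 61.5 and 46.9 CPM against 12.6, 11.4 and 30.8 CPM (1.63, called by DESeq2), and of Dppa2 (2.59) and Dppa4 (2.08), both under 1 CPM in every library of both lines. None of 12 naive genes and none of 12 formative genes passed, with 1 and 2 at an unadjusted p under 0.05 and 1 (Tbx3, lower in 5ar1) and 0 by DESeq2. The naive list summed to 8.35 to 15.2 CPM in 5ar1 and 6.69 to 11.9 CPM in 5ar3. Etv4, an ETS factor of the formative list, was above 5ar3 in every 5ar1 library (21.7 to 45.6 CPM against 1.11 to 18.4 CPM), and did not pass (edgeR adjusted p 0.211).

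Ligands, receptors and feedback genes of the FGF pathway went in different directions. Fgf4, the autocrine ligand of pluripotent cells, was at 31.4, 23.4 and 34.7 CPM in 5ar1 against 5.01, 3.16 and 6.58 CPM in 5ar3 (log2 fold change 2.59, SE 0.33, edgeR adjusted p 2.47e-04). The receptors were lower in 5ar1: Fgfr1 was at 135, 94.6 and 84.5 CPM against 211, 169.5 and 188 CPM (log2 fold change -0.86), Fgfr2 at 15.8, 7.90 and 8.53 CPM against 107, 84.3 and 26.8 CPM (-2.76), and Fgfr3 had a log2 fold change of -2.52. The ERK feedback and target genes Dusp6 (1.20) and Etv5 (1.45) were higher in 5ar1. The calls of Dusp6, Etv5 and Fgfr1 each held under 6 of 15 alternatives, and none of them held with passage as a covariate. In total 3 of the 23 genes were higher and 3 lower, with a median of 0.26, so the list's name covers genes that moved in opposite directions. At passage 12 the list's median was -0.16, with 14 of 23 genes below 0. For Etv5 the 5ar3 library at passage 12, at 112 CPM, was close to the 5ar1 range of 138 to 193 CPM, and far from passages 4 and 5, at 35.6 and 32.2 CPM.

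In the Nodal and activin pathway, 2 of 19 genes were higher in 5ar1 and none was lower, with a median log2 fold change of 0.05. At the other passages 6 were higher, while at passage 12 none passed, 15 of 19 were below 0 and the median was -0.32. Nodal, the ligand, was at 7.45, 9.21 and 21.3 CPM in 5ar1 and 0.811, 1.70 and 6.20 CPM in 5ar3 (log2 fold change 2.12, SE 0.51, edgeR adjusted p 0.0274), and Skil, a target that feeds back on Smad proteins, was at 189 to 195 CPM against 109.5 to 142 CPM. Neither gene passed with passage as a covariate, without the 5ar3 library at passage 4 or without that at passage 5, and Nodal did not pass without the 5ar1 library at passage 14, whereas without the 5ar3 library at passage 12 the count of higher genes was 7. Nodal stayed past the threshold under 7 of 15 alternatives. In the BMP pathway, the ligand Bmp7 (0.606 to 2.59 CPM against 3.96 to 16.3 CPM) and the target Id4 (-2.34) were lower in 5ar1, 2 of 19, with a median of -0.25. In the Notch pathway the targets Hey1 (0.94) and Hey2 (1.64) were higher, 2 of 13, although the median was -0.40. In the retinoic acid pathway 1 of 15 genes, the retinol receptor Stra6, was lower (-2.95, list median 0), and in the Hedgehog pathway 1 of 8, Shh (list median -0.74). DESeq2 also called Cyp26a1 lower in the retinoic acid list, at a log2 fold change of -7.11 that did not pass edgeR's test. In the Hedgehog list DESeq2 called 3 genes lower, Shh, Ptch1 and Gli1. All 8 Hedgehog genes were below 0, also at passage 12, where the median was -1.40. The kinase Nuak2, 1 of 10 Yap targets, was lower (-1.43, list median -0.29), with its lines overlapping at 11.8 to 33.5 CPM and 27.5 to 85.2 CPM. None of 14 Wnt targets and feedback genes passed (4 at an unadjusted p under 0.05, 1 by DESeq2), nor of 8 LIF and STAT3 genes (0 and 0).

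Of 30 Eph, ephrin and axon guidance genes, 6 were lower in 5ar1 and 1 higher (median -0.46). Epha1 was higher in 5ar1, at 34.2, 31.9 and 52.8 CPM against 5.38, 6.45 and 13.6 CPM (log2 fold change 2.22), whereas its relative Epha7 was lower, at 21.9, 17.4 and 16.8 CPM against 98.5, 99.1 and 45.8 CPM (-2.12). The netrin receptor gene Dcc had no read in 5ar1 and was at 9.54, 2.97 and 2.36 CPM in 5ar3, at least 145-fold lower in 5ar1, and Epha3, Efnb1, Sema3a and Slit2 were lower. Of 30 imprinted genes, 4 were lower in 5ar1 (median -0.35): Dlk1, at 0.478 to 0.745 CPM against 5.61 to 9.03 CPM, Zim1, Cdkn1c, an inhibitor of the cell cycle at 29.7 to 35.0 CPM against 61.7 to 91.4 CPM, and Kcnq1ot1, the noncoding RNA of the domain that holds Cdkn1c. Of 27 basement membrane and integrin genes, Lama3, a laminin chain of epithelia, and Itgb4, an integrin subunit of hemidesmosomes, were higher in 5ar1 and Lama1 was lower. By symbol, 5 of 37 collagen genes were lower in 5ar1 and none was higher, and among cadherins Cdh1 was higher while Cdh2, Cdh6, Cdh11 and Cdh13 were lower. Of 16 Sox genes, 7 were lower, among them Sox2ot, a noncoding RNA that overlaps Sox2, and Sox15 was higher. Of 281 solute carrier genes, 20 were higher and 4 lower, the largest of them Slc22a3, an organic cation transporter chosen after its values were seen (5.48 to 18.4 CPM against 0.236 to 0.533 CPM). The share called was 13.5% of collagen genes, 50% of Sox genes and 8.54% of solute carrier genes. Over all genes tested it was 3.88% (1.86% higher, 2.02% lower).

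Insig1 and Scd1 stood alone in their pathways. Insig1, an endoplasmic reticulum protein that holds back SREBP processing when sterol is plentiful and is itself an SREBP target, was at 1.26, 0.606 and 0.542 CPM in 5ar1 and 74.6, 45.4 and 67.8 CPM in 5ar3 (log2 fold change -6.30, SE 0.47, edgeR adjusted p 2.13e-06). Scd1, the desaturase that makes monounsaturated fatty acids, was at 2.00, 3.47 and 3.11 CPM against 52.2, 40.9 and 152 CPM (log2 fold change -4.83, SE 0.44, edgeR adjusted p 7.10e-06). Their paralogs did not follow: Insig2 was at 14.8 to 16.8 CPM against 11.95 to 15.3 CPM (log2 fold change 0.19), and Scd2 was at 1432 to 1840 CPM against 1306 to 1860 CPM (log2 fold change 0.00). Reads of near-identical stretches of Scd1 and Scd2 may be split by the counting. Of 26 genes of cholesterol synthesis and uptake, Tm7sf2 (0.85) and Ebp (0.83) were higher in 5ar1 and Insig1 alone lower. Of 16 genes of fatty acid synthesis only Scd1 passed, with Fasn at 0.59 and Srebf1 at 0.02.

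In neither gene did the FS lines lie side by side when all lines were ordered by level. Insig1 was at 0.389 to 2.83 CPM in AF32, as low as in 5ar1, at 66.0 to 84.5 CPM in AFX6, near 5ar3, and at 173 to 201 CPM in E14IV-C. Scd1 was at 3.93 to 8.45 CPM in AF32, 176 to 196 CPM in AFX6 and 381 to 513 CPM in E14IV-C. In order of level for Insig1, 5ar1 and AF32 overlapped, 5ar3 and AFX6 overlapped, and E14IV-C was above all of them. For Scd1 the order was 5ar1, AF32, 5ar3, AFX6 and E14IV-C, with no overlap between neighbours. By a search made after the values were seen, 7 genes had every 5ar3 and AFX6 library more than 1 log2 unit above every 5ar1 and AF32 library: Insig1, Gm37784, Cldn34c1, Scd1, Gm44791, Pvt1 and Pcsk1. Of the genes beside Insig1 on chromosome 5, Paxip1 (76.7 CPM in 5ar1 and 65.3 CPM in 5ar3) and Rbm33 (77.3 and 91.7 CPM) did not pass, whereas Shh, whose start lies 385.5 kb from that of Insig1, was also lower in 5ar1 (log2 fold change -5.19). Insig1 spans chr5:28071363-28078662 and Scd1 spans chr19:44394455-44407879 in GENCODE M21 on GRCm38.

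**Figure D3:**
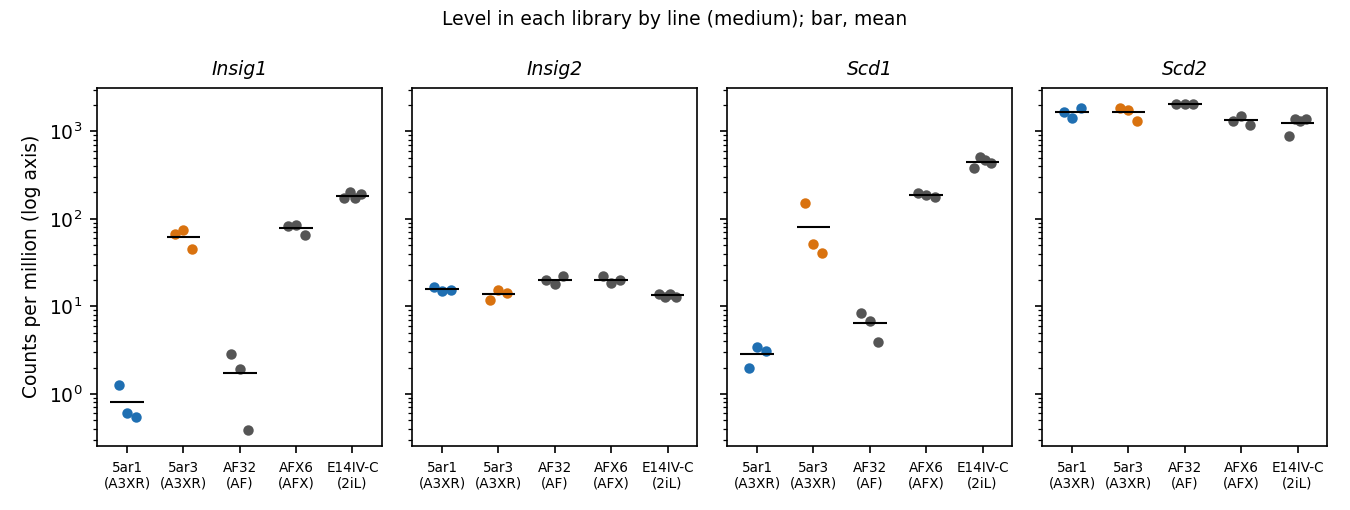
Level of Insig1, Insig2, Scd1 and Scd2 in each of the 16 libraries, in CPM on a log axis, by line with its medium in brackets; bars are means. Insig1 and Scd1 are low in 5ar1 and AF32 and high in the other lines, while Insig2 stays between 11.95 and 22.1 CPM and Scd2 between 894 and 2062 CPM.

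Stress and mitochondrial genes showed small differences. Of 12 genes of the unfolded protein response, 4 were higher in 5ar1 (median 0.44): the chaperone Hspa5 (586 to 776 CPM against 358 to 459.6 CPM), Pdia4 (0.55), Hyou1 (0.46) and Manf (0.68). None of these 4 passed when only the libraries of the FS lines were fitted. Pdia4 and Hyou1 stayed past the threshold under 5 of 15 alternatives each, Hspa5 under 11 and Manf under 13. Of 12 Nrf2 targets, Nqo1 and Gstm2 were higher (median 0.47, all 12 above 0). Of 27 Atf4 targets the amino acid transporter Slc7a3 was higher (447 to 644 CPM against 131 to 335 CPM, list median 0.05), while at passage 12 the list's median was -0.58, with 26 of 27 genes below 0. This 1 call is near the share over all genes tested, 3.88%. Of 13 mitochondrially encoded subunits of oxidative phosphorylation, mt-Nd2 and mt-Cytb were lower in 5ar1 (-0.72 and -0.69, median -0.57), while the 23 nuclear subunits had none past the threshold and a median of 0.20. The share of reads on mt-Rnr2 was 15.7% and 24.2% in 5ar3 at passages 4 and 5, 11.7% at passage 12 and 9.96% to 13.6% in 5ar1. The calls of mt-Nd2 and mt-Cytb held when the mitochondrial rRNA genes were left out of the counts. Neither held when libraries were scaled by total counts alone. Beyond these fits, the part of the mt-Rnr2 share in the mitochondrial result was not tested. Of 25 cell cycle genes Ccnd2 and Cdkn1c were lower in 5ar1 (median -0.02). H2-Q6 was higher among 14 MHC class I and antigen processing genes (median -0.04), and Ddx58 among 16 interferon response genes (median -0.06).

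In 19 lists with tested genes no gene passed edgeR's test: beside those named above, surface ectoderm (5 tested), blood and immune (3), smooth and striated muscle actin (12), glycolysis (19), hypoxia response (16), nuclear oxidative phosphorylation (23), mitochondrial rRNA (2), heat shock (10), metallothioneins (3), p53 targets (18), the Bcl2 family (14), DNA methylation (11), Polycomb repressive complex 2 (9), Hox clusters (8) and sex chromosome genes (5). Over the 198 distinct genes of these 19 lists, 25 had an unadjusted p under 0.05 and DESeq2 called 8. No gene of the two-cell-like list was tested. Glycolysis genes had a median log2 fold change of -0.02 and hypoxia genes of -0.24, with 0 at an unadjusted p under 0.05 in both. At passage 12 the hypoxia median was -0.78, with 15 of 16 genes below 0, and the glycolysis median was -0.14. The hypoxia list's sum varied within the lines, from 693 to 1787 CPM in 5ar1 and from 1128 to 1564 CPM in 5ar3. The p53 targets had a median of -0.18 over all libraries and of 0.34 at passage 12, with 15 of 18 genes above 0 there. All 3 metallothionein list genes had an unadjusted p under 0.05, Mt1 being at 18.1 to 45.2 CPM in 5ar1 and 10.5 to 16.1 CPM in 5ar3. Of 68 histone genes by symbol none passed (2 unadjusted, 1 by DESeq2), and of 82 ribosomal protein genes none (7 and 2). In all, 108 of 731 tested list genes passed, and 612 genes that passed were outside the lists.

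At passage 12, where the lines could be compared at the same passage, 17 genes passed (0.0916% of those tested), 10 higher and 7 lower in 5ar1, with 1093 at an unadjusted p under 0.05. With 1 library per line, this test took its spread from the other libraries, and the lone libraries were assumed to vary like them. All 17 were among the 720, whose test included both passage 12 libraries. The genes higher in 5ar1 were Rab25, Esrp1, Esrp2, Mal2, Ocln and St14 of the epithelial lists, and Bspry, Hpn, Ptpn3 and Tnk1. Those lower were Insig1, Scd1, Dlk1, Car4, Flrt2, Slc15a2 and Gm37784. Rab25 differed by 6.61 at passage 12 and by 6.90 at the other passages, and Insig1 by -6.80 and -6.06. No gene of the neural plate list passed at passage 12, although 23 of its 24 genes were negative there, with a median of -4.26. Over the 3 epithelial lists the median at passage 12 was 1.22, against 1.38 over all libraries, which include this pair.

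At the other passages 353 genes passed (1.9%), 221 higher and 132 lower in 5ar1, or 245 and 86 when scaled by total counts alone. The count was 1095 without the 5ar1 library at passage 10, 154 without that at passage 14, and 137 and 122 without the 5ar3 libraries at passages 4 and 5. Of the 353, 332 (94.1%) had the same sign in the passage 12 pair, which shares no library with them, against 64.0% of all genes tested. The size was smaller for genes higher in 5ar1, with a median of 1.039 at passage 12 against 2.14 at the other passages, where they had been chosen by it, and -2.09 against -2.83 for those lower. A test of the difference between both contrasts called 2 genes (0.0108%), Tdgf1 and its pseudogene Tdgf1-ps1, with 605 at an unadjusted p under 0.05. Tdgf1, the Nodal co-receptor Cripto, was at 24.1, 10.2 and 23.9 CPM in 5ar1 and 0.626, 0.989 and 15.2 CPM in 5ar3. Its log2 fold change was 4.91 at the other passages and -0.58 at passage 12 (edgeR adjusted p of the difference 0.00131). Tdgf1-ps1 followed, at 12.1, 4.91 and 11.4 CPM against 0.516, 0.612 and 7.96 CPM, and reads of the pair may be split between near-identical sequence. Within 5ar3, the library at passage 12 was thus the one nearest to 5ar1 for Tdgf1. The same held in part for Nodal, at 6.20 CPM at passage 12 against 0.811 and 1.70 CPM at passages 4 and 5, and for Etv5. Greb1l also varied within 5ar3, at 81.7 and 61.3 CPM at passages 4 and 5 of 5ar3, 10.5 CPM at passage 12 and 1.05 to 1.45 CPM in 5ar1.

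**Figure D4:**
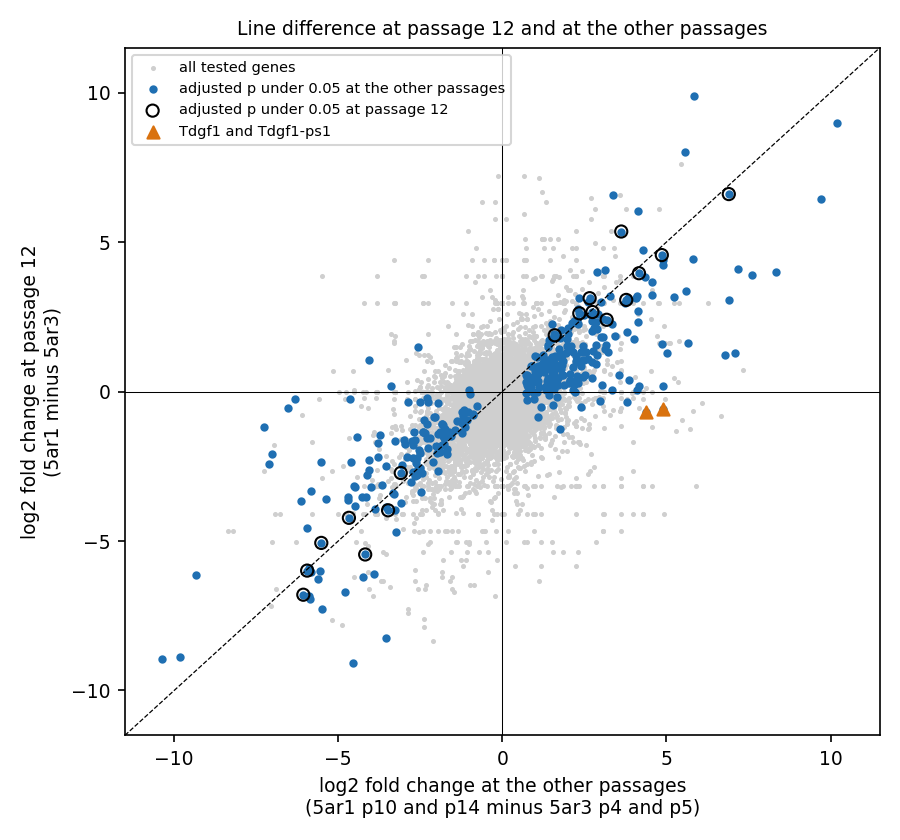
Log2 fold change between the lines at the other passages (x axis) and at passage 12 (y axis) for every tested gene, each dot a gene; blue dots passed at the other passages, black rings at passage 12, and the dashed line marks equal values. Most blue dots share the sign of both axes, and Tdgf1 and Tdgf1-ps1 (orange) lie at 4.91 and 4.38 on the x axis and just below 0 on the y axis; rows of dots far from the centre are genes with few or no reads in a library.

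Among hairpins of the miR-302 cluster, which pluripotent cells transcribe, the direction was opposite to that of Mir200a. Reads over Mir302a were at 4.19, 7.84 and 3.62 CPM in 5ar1 and 14, 30.9 and 10.05 CPM in 5ar3 (log2 fold change -1.81, edgeR adjusted p 0.0409), and Mir302b (-1.63) and Mir367 (-1.71) were also lower in 5ar1, with Mir302d at -1.73 and an edgeR adjusted p of 0.0514. The cluster lies within Larp7, whose own level did not pass (74.9 to 85.2 CPM against 70.9 to 95.0 CPM, log2 fold change -0.09). At passage 12 Mir302a and Mir302b differed by -0.36 and -0.21, and the Mir302a call held under 7 of 15 alternatives. These genes were chosen after the values were seen. Their 3p sequences, again from RefSeq with the seed in capitals, are shown because hairpins side by side on chromosome 3 carry unlike seeds: AAGUGCU in miR-302b and miR-302d, and AUUGCAC in miR-367.
miR-302b-3p: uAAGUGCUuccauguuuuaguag
miR-302d-3p: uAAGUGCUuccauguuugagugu
miR-367-3p: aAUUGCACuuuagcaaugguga

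Some of the genes that differed lay close together on a chromosome. Over 686 windows of 2 Mb with at least 10 tested genes, the window from 34 to 36 Mb of chromosome 17 held the most genes higher in 5ar1, 16 of 110, with none lower and a median log2 fold change of 0.34. The median over all windows was -0.02. The 16 genes lay between 34647146 and 35673739 and included Pou5f1, the kinase subunit gene Csnk2b (139, 217 and 249 CPM against 67.3, 105 and 106 CPM, log2 fold change 1.12), the histone methyltransferase gene Ehmt2 (157, 159 and 183 CPM against 102, 103 and 127 CPM, 0.59), the transcription factor subunit gene Gtf2h4 (54.2, 57.9 and 60.8 CPM against 29.6, 33.6 and 32.0 CPM, 0.86) and H2-Q6 (1.83). Of the 110 genes, 82 were above 0. Relative to each gene's mean over the 16 libraries, the window's median was 0.41, 0.34 and 0.26 in 5ar1 and -0.01, -0.14 and 0.22 in 5ar3 (log2 scale), so the passage 12 library of 5ar3 was close to 5ar1 passage 14. In AF32 it was -0.07 or -0.08, in AFX6 0.00 to 0.03 and in E14IV-C -0.38 to -0.09. At passage 12 the window's median log2 fold change was 0.09. The window was picked as the highest of its kind, and no test was made of it.

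**Figure D5:**
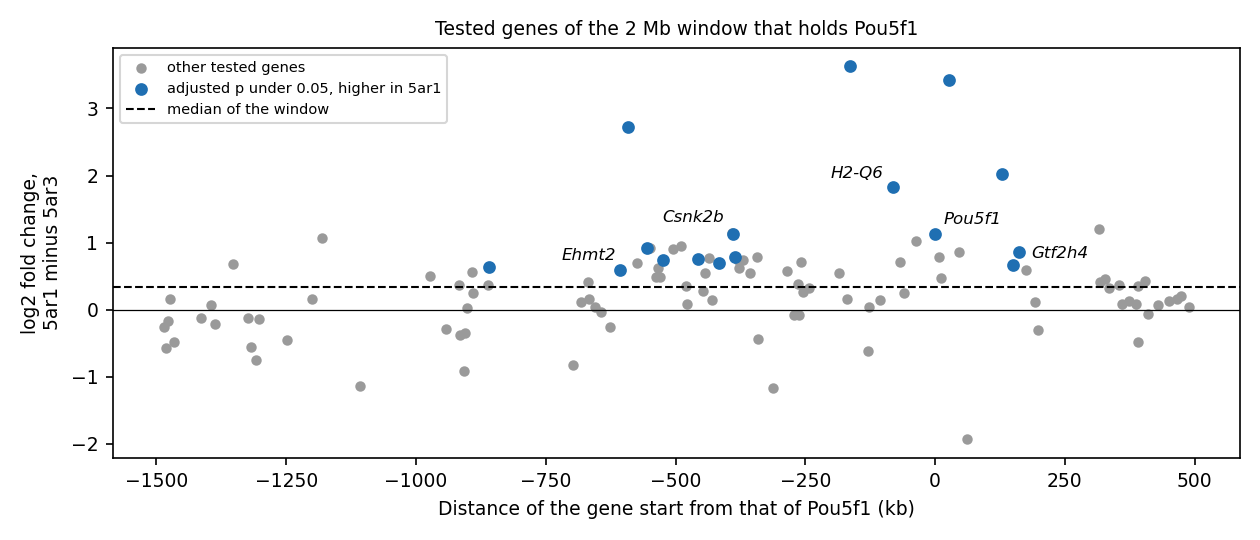
Log2 fold change, 5ar1 minus 5ar3, of the 110 tested genes of the chromosome 17 window against the distance of their start from that of Pou5f1 in kb; blue points passed an edgeR adjusted p of 0.05 and the dashed line is the window's median of 0.34. The 16 blue points lie from left of Ehmt2 to Gtf2h4, and genes at the left end of the window scatter around 0.

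The window that came next, from 176 to 178 Mb of chromosome 2, held 8 of 37 genes higher in 5ar1, with a median of 0.68 and 1.02 at passage 12. It holds a cluster of zinc finger genes, and its called members were 2210418O10Rik, Gm1980, Gm14296, Gm14322, Gm14401, Gm14409, Gm14412 and Gm14418, at 0.493 to 17.3 CPM on average in 5ar1. Such genes arise by local duplication, so reads may be split among near copies. The window's median relative to the mean of 16 libraries was 1.26 to 1.67 in E14IV-C, -0.36 to 0.28 in 5ar1 and -0.79 to -0.40 in 5ar3. The 5ar1 library at passage 10, at -0.36, lay just above the highest 5ar3 library, at -0.40. Over whole chromosomes the median log2 fold change ran from -0.11 (chromosome 15) to 0.04 (chromosome 17) among autosomes.

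Some larger differences lay outside the lists. H2afy and H2afy2, which encode macroH2A histones of silenced chromatin, were lower in 5ar1, at 10.02 to 16.3 CPM against 29.6 to 46.5 CPM (log2 fold change -1.54) and at 15.3 to 35.1 CPM against 42.2 to 71.0 CPM (-1.31), and were chosen after their values were seen. Named by the rule were also Bspry (12.8, 13.7 and 15.2 CPM against 0.921, 0.612 and 0.875 CPM), the tyrosine kinase Tnk1 (2.88), Lypd6b (2.83) and the adaptor Dok2 (2.51), all higher in 5ar1. On the lower side the rule named the repulsive guidance molecule Rgma (-3.24), the zinc finger factor Zbtb16 (-3.17), the carbonic anhydrase Car4 (3.595, 6.66 and 5.55 CPM against 36.9, 41.5 and 44.0 CPM), Capn6 (-2.54), Slit2 (-2.53), Cdh13 (-2.50) and the LIM homeodomain factor Lmx1b (-2.46). The calls of Lmx1b, Slit2, Cdh13, Bmp7, Rgma and Fgfr2 were lost without the 5ar1 library at passage 12 or without that at passage 14.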

How the data were processed

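Directional RNA-seq libraries were made from Trizol-extracted, column-purified RNA of 16 cultures, per the labels' protocols. The authors deposited raw read counts per gene; Trim Galore, TopHat2 2.1.0, featureCounts 1.5.0 and the mm10 genome are named in the submitters' processing notes. The annotation release and strand setting were not given in the sources used here. Columns were matched to samples by line and passage, and 6 columns that matched no sample were not used.

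The counts were fitted with edgeR 4.0.16 in R 4.3.3 (TMM scaling, filterByExpr by group, robust quasi-likelihood test) over all 16 libraries, which share 1 estimate of spread, with 1 mean per line. Of 34042 genes, 18555 passed the filter. Standard errors were derived from the fold change and the F statistic. A fit with 7 means gave passage 12 its own mean in each line. P-values were Benjamini-Hochberg adjusted over all genes tested, with a threshold of 0.05. CPM used TMM-scaled library sizes. The script was tested on simulated data. DESeq2 1.42.0, other scalings and filters, passage as a covariate and leaving out each library were alternatives.

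Named genes were the 15 per direction with the largest log2 fold change, of absolute size 1 or more, among genes past the threshold whose lines did not overlap and whose higher line averaged 10 CPM or more, leaving out Gm, Rik and -ps symbols, plus every list gene. Some list genes are not reported here by name. The lines, 52 gene lists and rules were chosen with earlier results of these data known. Gene positions came from GENCODE M21 (GRCm38) and sequences from RefSeq (GRCm38.p6). Total counts were 22069338 to 28125328 in the 6 libraries, and intervals and floors cover counting error only.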

Additional observations from a re-analysis of the deposited data

Results flagged for a closer look

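Tdgf1 and Tdgf1-ps1 drew attention because the difference between the lines at passage 12 was unlike that at the other passages. The edgeR adjusted p of that difference was 0.00131 for Tdgf1 and 0.0179 for Tdgf1-ps1. Both were low in 5ar3 at passages 4 and 5 and not at passage 12, where each line has a single library. Their sequences are near-identical, so they may not be separate results.

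Among 18 values examined for a sample far from its group in the 4 E14IV-C libraries, 2 had one, and chance alone marks about 1 in 20 groups. For Cldn6 the gap to the nearest library was 0.851 of the range, with passage 12 at 10.99 CPM and the others at 4.92 to 5.82 CPM. For Six3 it was 1 of the range, with 0.0425 CPM at passage 20 and no read in the other libraries. A gene with reads in only 1 library always has a gap of 1, so the rate of 1 in 20 does not apply to Six3. The E14IV-C library at passage 12 also had the highest share of reads on mt-Rnr2 of all 16, 38.1%, and the part of that in the Cldn6 value was not tested. Neither touches the comparison of 5ar1 with 5ar3 other than through the shared estimate of spread.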

How the results depend on the processing

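The count of genes that differed between the lines, 720, was 1292 by DESeq2, 128 by an edgeR test against a log2 fold change of 1, 375 from the 6 libraries alone and 431 with passage as a covariate, and ranged from 286 to 1549 when 1 library was left out. It stayed within 1.5 times of 720 under the other scalings and filters (500 to 751). At passage 12 the 17 genes became 10 with total counts, 322 without a low-count filter, 84 by DESeq2, 3 against a log2 fold change of 1 and 0 from the 6 libraries alone. At the other passages the 353 became 1226 without a filter, 919 by DESeq2, 93 against a log2 fold change of 1 and 55 from the 6 libraries alone, and ranged from 122 to 1095 when 1 library was left out. The 2 genes whose difference varied with passage became 90 without a filter, 14 by DESeq2 and 0 from the 6 libraries alone. Scaling by total counts moved the median over all genes to -0.11 at passage 12 and 0.14 at the other passages. The 15 neural plate genes became 7 with a mean of at least 1 CPM, where 12 of the list were tested. Against a log2 fold change of 1, the 4 mesenchymal genes became 2 and the 35 epithelial genes 19. The log2 fold change of Scd2, next to 0, turned positive with total counts (0.0361), without a filter (0.0063), from the 6 libraries alone (0.0104), and without 5ar1 passage 12 (0.0925), 5ar3 passage 12 (0.0814) or 5ar3 passage 4 (0.058), ranging from -0.1574 to 0.0925 over all 6 fits that left out 1 library. No named gene that passed changed direction. Except where the number of genes or libraries was itself reduced, the cause was not tested. No paired analysis was possible because the lines share only passage 12, and replicate numbers in accession order pair nothing. Depth limits genes with few reads: En1, under 1 CPM in every library of both lines, stayed past the threshold under 6 of 13 alternatives.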

Other observations

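Over the 375 genes lower in 5ar1, the mean log2 CPM of AFX6 lay nearer to 5ar1 than to 5ar3 for 69.3%, that of E14IV-C for 66.4% and that of AF32 for 39.5%. Tdgf1 was at 191 to 289.9 CPM in AF32, 171 to 230.0 CPM in AFX6 and 218 to 403 CPM in E14IV-C, above every library of both FS lines. Reads over the Mir302a hairpin numbered 70 to 107 in AF32, 26 to 97 in AFX6 and 0 to 4 in E14IV-C. The 2 Mb window with the most genes lower in 5ar1 ran from 180 to 182 Mb of chromosome 2, with 5 lower and 1 higher of 54 tested.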
